A study of Mus musculus with 18 samples.

Results

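Gene expression in Arf-C cells after 8 days of differentiation was compared with that in Ctrlv2 control cells of the same day, 3 libraries against 3. The genes compared were chosen by level alone: all genes with at least 0.5 FPKM (read fragments scaled by gene length and by library depth) in at least 3 of these 6 libraries. That gave 15050 of the 54532 genes in the deposited table. Of these, 12680 (84.25%) are annotated as protein coding. As the choice required, genes in 3 chromosome segments are described apart. In mm10 coordinates as deposited, the segment of chromosome 2 runs from BC052040 (start 115581716) to Dtd1 (end 144768758) and holds 234 of these genes. That of chromosome 14 runs from Gm49336 (start 60205282) to Sugt1 (end 79635196) with 133, and that of chromosome 4 from Ror1 (start 100095791) to Dab1 (end 104744844) with 20. The other 14663 genes lie elsewhere.

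ES-E14TG2a, a line of mouse embryonic stem cells, was used throughout, and the study names p19Arf and the pancreatic lineage in its title. It holds Arf-C, Arf-B and Ctrlv2 cells at day 8 and at day 0, 3 libraries of polyadenylated RNA per group and 18 in all. All groups at day 8 had been given activin A (20 ng/mL) with Matrigel from day 0, then retinoic acid (5 μM/ml as the labels write it) and FGF10 (10 ng/ml) from day 4. The genotype is labelled as wild type in every library, and how the Arf-C, Arf-B and Ctrlv2 cells were made, or whether each is 1 clone, is not stated there. The labels do not say whether the replicates were separate cultures, so the p-values measure the spread between these libraries, which may be technical.

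Embryonic stem cells hold a naive pluripotent state through a network of transcription factors around Pou5f1 (Oct4), Sox2 and Nanog, and lose it when they differentiate. Activin acts through Nodal receptors and drives cells toward endoderm, and retinoic acid switches on Hox genes and patterns the posterior foregut, from which the pancreas forms. The p19Arf protein, one of the products of Cdkn2a, binds Mdm2 and so protects Trp53 (p53) from degradation.

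The Arf-C libraries held 15464562, 15678839 and 14598683 reads on genes, and the Ctrlv2 libraries 14709983, 10432590 and 12363836. For a gene 1 kilobase long, 3 reads were worth 0.175 to 0.282 FPKM. Reads from the mitochondrial genome made up 1.81% to 2.21% of each library. Across genes, log2 values of Arf-C libraries correlated with each other at r = 0.986 to 0.988 and those of Ctrlv2 libraries at 0.982 to 0.984, while Arf-C and Ctrlv2 libraries correlated at 0.954 to 0.962. No library stood apart from the others of its group.

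At day 8, 2229 genes were higher and 2591 lower in Arf-C cells than in Ctrlv2 cells by limma's moderated test on log2(FPKM + 1), at a Benjamini-Hochberg adjusted p below 0.05. The share called was 32.0% of the genes tested, 14.8% higher and 17.2% lower, and this is the background against which each count of called genes below is to be read. At least a 2-fold change was reached by 181 higher genes (1.20%) and 290 lower ones (1.93%). The 3 Arf-C libraries all lay above the 3 Ctrlv2 libraries in 3555 genes (23.6%) and all below them in 3735 (24.8%), 48.4% together. Outside the 3 segments 31.0% of genes were called, 2217 (15.1%) higher and 2328 (15.9%) lower, and by at least 2-fold 179 (1.22%) and 238 (1.62%). When libraries were scaled to the same sum, as TPM values are, 2961 genes were higher and 1902 lower, so that 60.9% of calls were higher, against 46.2% at the deposited scale. Without Arf-C replicate 2, 1395 genes were higher and 1804 lower. Fold changes are on the log2(FPKM + 1) scale, which understates the change of genes near 1 FPKM.

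**Figure D1:**
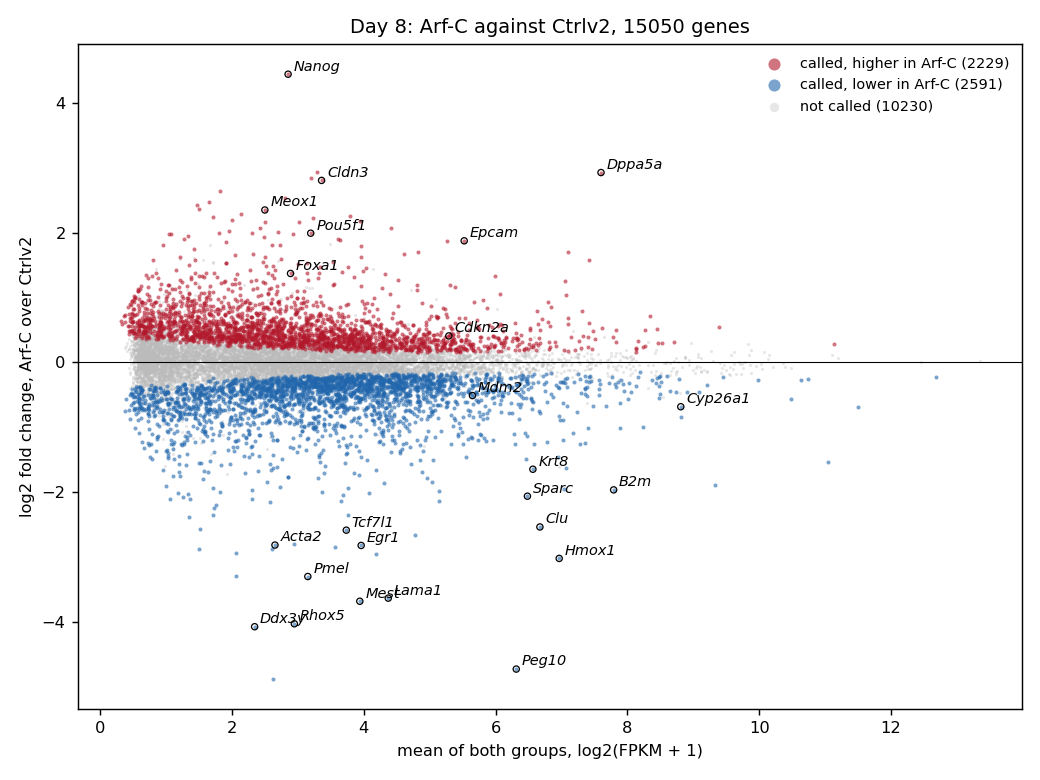
Difference between Arf-C and Ctrlv2 cells at day 8 for 15050 genes. The x axis gives the mean level of both groups and the y axis the log2 fold change, both on the log2(FPKM + 1) scale, red points are the 2229 genes called higher in Arf-C, blue points the 2591 called lower, and named genes are circled. Nanog lies highest at 4.44, and Peg10 is the lowest of the circled genes at -4.72.

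Cdkn2a itself was expressed in both groups and was higher in Arf-C cells. Cdkn2a was at 46.3, 42.6 and 43.3 FPKM in Arf-C libraries, against 32.5, 32.0 and 34.3 FPKM in Ctrlv2 libraries (log2 fold change 0.41, SE 0.057, adjusted p = 0.00172). The 3 Arf-C libraries lay above the 3 Ctrlv2 libraries. The gene-level value sums the p19Arf and p16Ink4a transcripts. Cdkn2b, the neighbouring inhibitor gene that encodes p15Ink4b, had overlapping groups and was not called (log2 fold change -0.015, adjusted p = 0.952). Mdm2, the ubiquitin ligase that p19Arf inhibits, was lower. Mdm2 was at 44.2, 42.7 and 36.3 FPKM in Arf-C libraries, against 58.6, 62.4 and 55.3 FPKM in Ctrlv2 libraries (log2 fold change -0.51, SE 0.084, adjusted p = 0.00361). Trp53 was at 49.4, 41.1 and 46.2 FPKM in Arf-C libraries and 38.6, 40.8 and 44.2 FPKM in Ctrlv2 libraries, and its groups overlapped (log2 fold change 0.14, adjusted p = 0.232). It passed the threshold with libraries scaled to the same sum (log2 fold change 0.23, adjusted p = 0.0467). Npm1, the nucleolar protein that binds p19Arf, was at 677, 658 and 699 FPKM in Arf-C libraries against 668, 734 and 637 FPKM in Ctrlv2 libraries and was not called (adjusted p = 0.994).

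Of 15 genes for p19Arf and the proteins known to bind or modify it, 3 were higher and 4 lower, with a median log2 fold change of 0.01, against a median of 0.003 over all genes tested. The lower ones besides Mdm2 were Cdkn2aip, which encodes a p19Arf binding protein (log2 fold change -0.63, adjusted p = 0.000985), the ubiquitin and SUMO ligase gene Topors (-0.39) and Myc (-0.91). The higher ones were Ctbp2, a corepressor gene (0.44), Huwe1, a ubiquitin ligase gene (0.45), and Ubtf, a transcription factor gene of the ribosomal DNA, at 0.29. Of 31 known target genes of Trp53, 11 were higher and 5 lower (median log2 fold change 0.05). Cdkn1a, the p21 inhibitor of Cdk enzymes and a direct Trp53 target, was lower. Cdkn1a was at 28.8, 24.1 and 22.2 FPKM in Arf-C libraries, against 35.3, 41.3 and 39.6 FPKM in Ctrlv2 libraries (log2 fold change -0.61, SE 0.10, adjusted p = 0.00363). Plk3, a stress kinase gene, was lower too, at 16.01, 19.09 and 20.2 FPKM in Arf-C libraries and 39.2, 63.5 and 63.1 FPKM in Ctrlv2 libraries (log2 fold change -1.51, adjusted p = 0.00278). Higher targets included Sesn1 (0.75), a sestrin that restrains mTORC1, the apoptosis nuclease gene Aen (0.61) and the desmosome gene Perp (0.59). The members of this list moved in both directions. Another lower target, Tnfrsf10b, lies in the chromosome 14 segment.

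On the log2(FPKM + 1) scale the largest rise of any gene at day 8 was that of Nanog, a homeobox factor of the pluripotent state. Nanog was at 19.5, 33.8 and 45.2 FPKM in Arf-C libraries, against 0.694, 0 and 0.916 FPKM in Ctrlv2 libraries (log2 fold change 4.44, SE 0.38, adjusted p = 0.00079). At day 0 the Arf-C libraries had been at 332, 301 and 335 FPKM, so that the day 8 level was a small part of the undifferentiated one. With reads in place of FPKM (limma's voom) the log2 fold change of Nanog was 6.79 and missed the threshold (adjusted p = 0.105), and with a pseudocount of 0.1 it was 6.17 (adjusted p = 0.00811). Of 14 naive pluripotency genes tested, 12 were higher, none was lower and the other 2 had fold changes above 0 (median log2 fold change 1.25). Zfp42 (Rex1), a marker of naive stem cells, is another. Zfp42 was at 29.6, 42.6 and 57.4 FPKM in Arf-C libraries, against 12.9, 10.96 and 13.5 FPKM in Ctrlv2 libraries (log2 fold change 1.67, SE 0.23, adjusted p = 0.0038). Esrrb, an orphan nuclear receptor of the naive network, differed in the same direction. Esrrb was at 11.2, 17.1 and 20.5 FPKM in Arf-C libraries, against 2.86, 2.32 and 3.13 FPKM in Ctrlv2 libraries (log2 fold change 2.16, SE 0.21, adjusted p = 0.000656). Nr0b1 (1.95), Tfcp2l1 (1.81), Klf4 (0.85) and Klf2 (1.89) also rose. By voom, Klf2 had a log2 fold change of 2.06 and missed the threshold (adjusted p = 0.0621). The summed level of the 14 genes was 165.3 to 304.1 FPKM in Arf-C libraries and 72.0 to 86.6 FPKM in Ctrlv2 libraries. In bulk RNA, more cells that keep this program and more RNA per cell cannot be told apart.

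Naive genes varied together among the Arf-C libraries. In 13 of the 14, replicate 3 was the highest Arf-C library and replicate 1 the lowest (92.9%), a pattern that 2766 of the 15050 genes showed (18.4%). The opposite pattern, replicate 1 highest and replicate 3 lowest, was found in 3388 genes (22.5%). It held for 13 of 18 contractile genes (72.2%), 17 of 26 epithelial genes (65.4%) and 11 of 16 immediate early and stress genes (68.8%). Among 21 basement membrane genes each order was found in 3 (14.3%). These are counts within 3 libraries and carry no test.

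Genes of the wider undifferentiated state were also more often higher. Of 15 core genes 9 were higher and 1 lower (median log2 fold change 0.38). Pou5f1 was at 11.9, 17.3 and 23.3 FPKM in Arf-C libraries, against 2.88, 3.73 and 3.97 FPKM in Ctrlv2 libraries (log2 fold change 1.99, SE 0.23, adjusted p = 0.00169). Utf1, a chromatin protein gene of stem cells, was at 32.3, 44.9 and 50.9 FPKM in Arf-C libraries, against 8.09, 10.8 and 9.08 FPKM in Ctrlv2 libraries (log2 fold change 2.06, SE 0.18, adjusted p = 0.000432). Sox2, counted here with the naive genes, was higher as well (log2 fold change 1.19, adjusted p = 0.00392). Dppa5a encodes an RNA binding protein of stem cells. Dppa5a was at 410.5, 532 and 665 FPKM in Arf-C libraries, against 79.8, 58.6 and 68.5 FPKM in Ctrlv2 libraries (log2 fold change 2.92, SE 0.19, adjusted p = 0.000212). Dppa5a is on a list of 13 preimplantation genes of which 4 were higher and 4 lower (2 lower without Arf-C replicate 1). Ooep, a subunit of the maternal complex of the oocyte, was on the higher side (2.65), and Khdc3, a partner in that complex, on the lower side (-1.99). Of 10 formative and primed epiblast genes 4 were higher and 2 lower, with Zic2 (0.73) among the higher.

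The promoters of 2 of these genes hold letters that match recognition sequences of the pluripotency factors, which is why they are shown. The sequences are the 250 bases before the start of the gene in RefSeq (GRCm38.p6, the mm10 assembly). Nanog's window is chr6:122707239-122707488 on the plus strand, with capitals on a composite Oct4 and Sox2 site (found on the other strand). Zfp42's window is chr8:43307010-43307259 on the minus strand, with capitals on an octamer (ATTTGCAT).
Nanog: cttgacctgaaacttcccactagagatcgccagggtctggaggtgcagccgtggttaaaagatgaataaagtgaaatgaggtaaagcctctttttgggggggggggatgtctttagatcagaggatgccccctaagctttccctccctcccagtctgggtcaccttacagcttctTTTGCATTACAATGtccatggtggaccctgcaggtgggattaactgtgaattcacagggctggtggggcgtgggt
Zfp42: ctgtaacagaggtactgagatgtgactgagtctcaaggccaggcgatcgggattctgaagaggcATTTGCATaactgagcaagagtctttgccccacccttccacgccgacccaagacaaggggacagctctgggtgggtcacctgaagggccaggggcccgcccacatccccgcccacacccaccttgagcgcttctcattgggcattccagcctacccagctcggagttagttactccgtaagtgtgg
The composite was searched on both strands and found in 2 of 32851 RefSeq promoter windows of this length (0.00609%), and the octamer, which the composite can overlap, in 526 (1.60%). RefSeq windows could be matched by symbol, chromosome and strand to 10258 of the 15050 genes. Over these 10258 genes the octamer was in 1.33% of windows, with 1.67% of genes called higher and 1.36% of those called lower. It was in 5 of 102 windows of genes higher by at least 2-fold (4.90%) and in 4 of 186 of genes lower by at least 2-fold (2.15%). The 5 higher genes are Zfp42, Elf3, Pipox, Chchd10 and Sfrp2. Of the 11 naive genes with a window, 1 held the composite (Nanog) and 1 the octamer (Zfp42), and none of 10 core genes held the octamer. A match describes the letters and not a bound site.

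**Figure D2:**
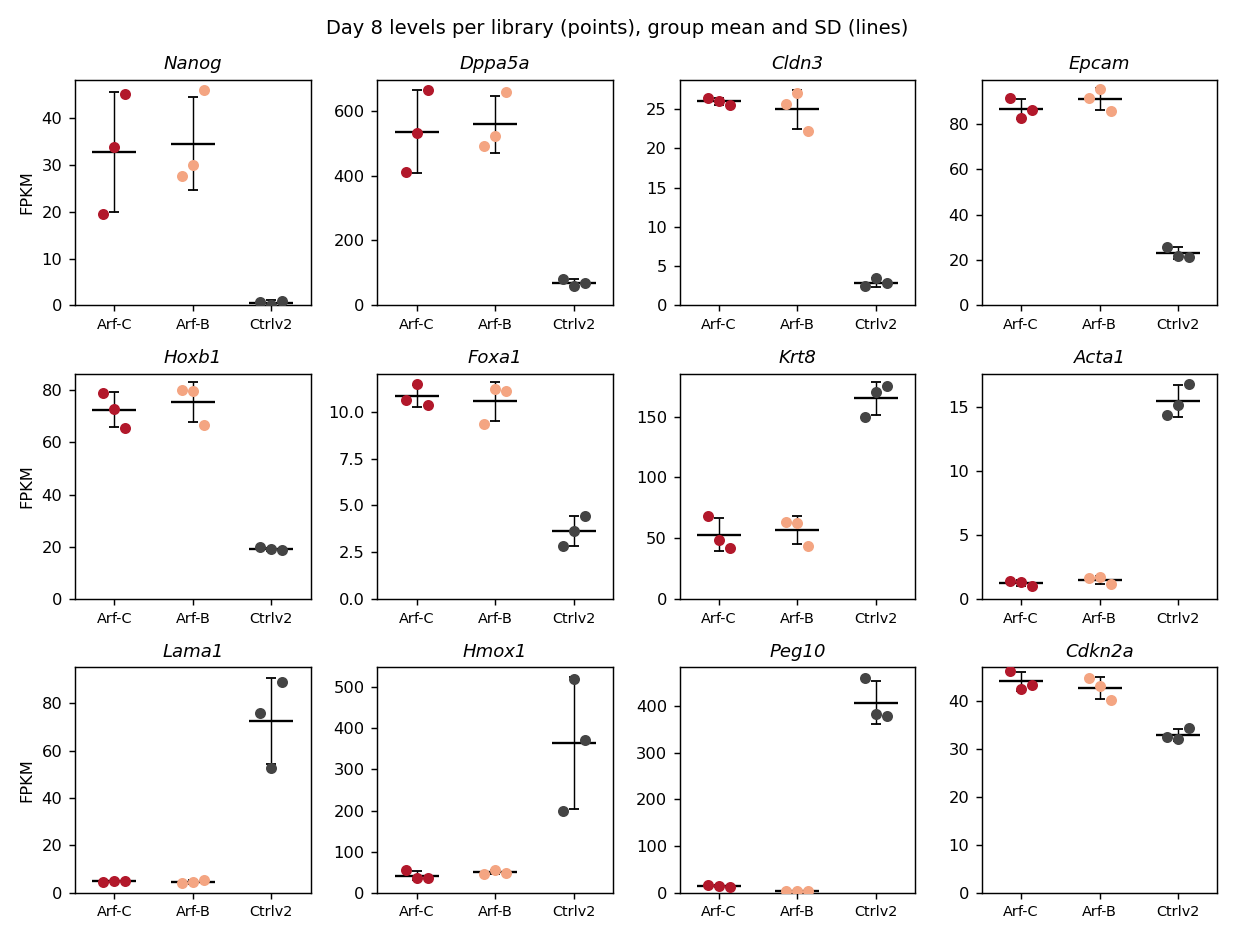
Levels of 12 genes in the 9 day 8 libraries. Each panel gives FPKM on a linear axis from 0, with points for the 3 libraries of Arf-C (left), Arf-B (middle) and Ctrlv2 (right), and lines for the mean and SD. In each panel the Arf-C points lie on one side of all Ctrlv2 points, and for Nanog the Arf-C libraries span 19.5 to 45.2 FPKM.

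Genes that handle retinoic acid split into both directions. Of 12 tested, 4 were higher and 4 lower (2 lower without Ctrlv2 replicate 3 or Arf-C replicate 3). Cyp26a1, the enzyme that clears retinoic acid and one of its best known targets, was the most abundant of them and was lower. Cyp26a1 was at 412, 328 and 322 FPKM in Arf-C libraries, against 601, 538 and 558 FPKM in Ctrlv2 libraries (log2 fold change -0.68, SE 0.10, adjusted p = 0.00218). Stra6, a receptor that brings retinol into cells, was higher. Stra6 was at 17.9, 19.3 and 18.8 FPKM in Arf-C libraries, against 6.68, 5.67 and 5.05 FPKM in Ctrlv2 libraries (log2 fold change 1.54, SE 0.092, adjusted p = 4.72e-05). The cellular binding protein gene Crabp1 was higher (0.89) and its relative Crabp2 lower (-0.36), and the retinaldehyde reductase gene Dhrs3 was higher (0.54). The binding protein gene Rbp4 (log2 fold change -0.61, adjusted p = 0.0443) was called as lower, but not without any 1 of 5 of the 6 libraries (log2 fold changes of -0.64 to -0.47, adjusted p of 0.0939 to 0.124). Of 14 retinoid receptor and target genes 4 were higher and 3 lower, among them Rarg, which encodes a retinoic acid receptor, at 0.47 and Nrip1, a corepressor gene of nuclear receptors, at -0.55. Stra8, a gene induced by retinoic acid before meiosis, had 689.9, 690.0 and 742 FPKM in Arf-C libraries and 858, 769 and 793 FPKM in Ctrlv2 libraries and missed the threshold (adjusted p = 0.0554).

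Hox genes, which give cells their position along the body axis, were mostly higher. Of 29 tested, 16 were higher and 3 lower (median log2 fold change 0.45). Hoxb1, a direct retinoic acid target of the hindbrain and foregut, had the largest change among them on the log2(FPKM + 1) scale. Hoxb1 was at 79.1, 72.7 and 65.6 FPKM in Arf-C libraries, against 19.8, 19.02 and 18.6 FPKM in Ctrlv2 libraries (log2 fold change 1.86, SE 0.074, adjusted p = 7.4e-06). Every Arf-C library lay above every Ctrlv2 library. Hoxd1 (1.27, but 2.21 with a pseudocount of 0.1 and 2.41 by voom), Hoxc8 (1.23) and Hoxb7 (0.90) were higher too. The 3 lower genes were Hoxb13 (-0.99), Hoxc5 (-0.54) and Hoxb4 (-0.50). Cdx1, a caudal homeobox gene that responds to retinoic acid and Wnt, was higher too. Cdx1 was at 12.7, 15.7 and 18.8 FPKM in Arf-C libraries, against 1.297, 2.31 and 2.08 FPKM in Ctrlv2 libraries (log2 fold change 2.53, SE 0.18, adjusted p = 0.000134). Of 7 genes of the posterior axis 3 were higher and 1 lower, with 1 higher and 2 lower without Ctrlv2 replicate 3, and 1 and 1 without Arf-C replicate 3 or with the replicate block. Meox1, a homeobox gene of somites counted with the mesoderm genes, was tightly grouped. Meox1 was at 11.7, 11.5 and 11.97 FPKM in Arf-C libraries, against 1.54, 1.31 and 1.67 FPKM in Ctrlv2 libraries (log2 fold change 2.35, SE 0.079, adjusted p = 3.54e-06).

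Markers of the intended lineage were low in both groups. Pdx1, the master regulator of the pancreas, was below the level that admitted a gene to the comparison, at 0.336, 0.460 and 0.291 FPKM in Arf-C libraries (39 reads in all) and 0.0902, 0.174 and 0.146 FPKM in Ctrlv2 libraries (11 reads). Ins2 had 31 reads over the 3 Arf-C libraries and none over the 3 Ctrlv2 libraries, which allows up to 3 reads there, and Neurog3 had 16 and 0. Other listed genes below that level differed the other way, with 6 reads of Nkx6-1 over the Arf-C libraries and 28 over the Ctrlv2 libraries, and 3 and 10 of Nkx2-2. That limit of 3 reads covers counting error only. Ins1 and Gcg had no read in either group. Of 10 pancreatic progenitor genes above that level, 3 were higher and 4 lower, 1 of the lower ones (Gata4) lying in the chromosome 14 segment. Without Arf-C replicate 2 the counts were 1 and 3. Prox1, a regulator of foregut endoderm, was lower (log2 fold change -0.72, adjusted p = 0.00265). Of 4 endocrine genes tested 2 were higher and none lower, namely Mafa, a beta cell transcription factor gene, at 0.78, and Pax6 at 0.73.

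Genes of the extraembryonic endoderm were mostly lower, while those of definitive endoderm moved both ways. Of 10 definitive endoderm genes 2 were higher and 3 lower, 1 of the lower ones (Gata4) in the chromosome 14 segment. Foxa1, a pioneer factor of endoderm, was higher. Foxa1 was at 10.7, 11.5 and 10.4 FPKM in Arf-C libraries, against 2.81, 3.65 and 4.42 FPKM in Ctrlv2 libraries (log2 fold change 1.37, SE 0.13, adjusted p = 0.000267). Gata6, which specifies endoderm, was lower. Gata6 was at 2.66, 2.74 and 2.65 FPKM in Arf-C libraries, against 6.84, 5.54 and 7.04 FPKM in Ctrlv2 libraries (log2 fold change -1.02, SE 0.095, adjusted p = 0.000296). Of 19 genes of visceral and parietal endoderm 14 were lower and 1 (Stra6) higher, with a median log2 fold change of -0.75. Outside the segments, which hold Gata4 and Sox7, 12 of 17 were lower. Pth1r, the receptor for parathyroid hormone and a marker of parietal endoderm, was at 2.73, 1.76 and 2.37 FPKM in Arf-C libraries and 6.70, 5.54 and 5.78 FPKM in Ctrlv2 libraries (log2 fold change -1.10, adjusted p = 0.000736). Sparc, a matrix glycoprotein abundant in that layer, was at 46.6, 42.4 and 39.3 FPKM in Arf-C libraries, against 192, 157 and 196 FPKM in Ctrlv2 libraries (log2 fold change -2.06, SE 0.10, adjusted p = 2.24e-05). The summed level of the 19 genes was 626 to 645.3 FPKM in Arf-C libraries and 772.5 to 858.1 FPKM in Ctrlv2 libraries. Of 10 posterior foregut genes 1 was higher and 3 were lower, 1 of the lower ones being Gata4. Of 5 hepatoblast genes none was higher and 2 were lower.

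Genes that encode the proteins of the basement membrane were more often lower than higher in Arf-C cells. Of 21 such genes 12 were lower and 3 higher (median log2 fold change -0.51). Lama1, the laminin chain of early embryonic basement membranes, was one of them. Lama1 was at 4.49, 4.82 and 5.16 FPKM in Arf-C libraries, against 75.7, 52.8 and 88.9 FPKM in Ctrlv2 libraries (log2 fold change -3.63, SE 0.18, adjusted p = 6.24e-05). The laminin gene Lamc1 was lower by less. Lamc1 was at 33.8, 39.0 and 37.2 FPKM in Arf-C libraries, against 87.1, 73.2 and 89.3 FPKM in Ctrlv2 libraries (log2 fold change -1.16, SE 0.089, adjusted p = 0.000134). Col4a1 and Col4a2 encode the 2 chains of the common type IV collagen and share a promoter region. Col4a1 was at 15.1, 16.5 and 15.4 FPKM in Arf-C libraries and 74.8, 60.3 and 83.8 FPKM in Ctrlv2 libraries (log2 fold change -2.14, SE 0.11, adjusted p = 3.12e-05), and Col4a2 had a log2 fold change of -1.83. P4ha1, which hydroxylates collagen chains, was lower as well (-1.06). Ctrlv2 replicate 2 was the lowest Ctrlv2 library for Lama1, Lamc1, Col4a1 and Col4a2, and still lay above every Arf-C library. Of 21 genes of interstitial matrix 9 were lower and 3 higher, 2 of the lower in the segments. Col6a1 (log2 fold change -1.41) and Col6a2 (-0.70) fell together.

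Contractile genes were lower almost throughout the list. Of 18 smooth muscle and contractile genes 15 were lower and 1 higher (median log2 fold change -0.70). Acta1 encodes skeletal alpha actin. Acta1 was at 1.42, 1.29 and 1.02 FPKM in Arf-C libraries, against 14.4, 15.1 and 16.8 FPKM in Ctrlv2 libraries (log2 fold change -2.87, SE 0.095, adjusted p = 3.54e-06). Acta2, the smooth muscle actin, was lower as well. Acta2 was at 1.80, 1.28 and 0.989 FPKM in Arf-C libraries, against 13.2, 13.0 and 21.0 FPKM in Ctrlv2 libraries (log2 fold change -2.81, SE 0.20, adjusted p = 0.000187). Reads of the actin genes can match their near-identical copies, so the split between them is uncertain. Myl9, a regulatory light chain of myosin, was at 7.96, 7.84 and 6.28 FPKM in Arf-C libraries and 25.1, 22.2 and 33.5 FPKM in Ctrlv2 libraries (log2 fold change -1.73, SE 0.16, adjusted p = 0.000391). The calponins Cnn1 (-1.68) and Cnn2 (-1.21) and the caldesmon gene Cald1 (-1.07) were lower too. Among 16 targets of Yap and Tead, factors that respond to cell shape, 5 were lower and 1 higher. Cyr61 was at 90.4, 73.3 and 58.0 FPKM in Arf-C libraries, against 192, 179 and 233 FPKM in Ctrlv2 libraries (log2 fold change -1.45, SE 0.17, adjusted p = 0.00171), and Ctgf had a log2 fold change of -0.91. Of 13 mesenchymal genes 5 were lower and 1 higher, with Zeb1 at -0.96, Snai1 at -0.74, Vim at -0.60 and Cdh2 at -0.69.

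Several of these promoters hold a CArG box, the element bound by serum response factor, and 3 are shown for that reason with the box in capitals. The windows are the 250 bases before the RefSeq start (GRCm38.p6), at chr8:123894776-123895025 on the minus strand for Acta1, chr2:156775214-156775463 on the plus strand for Myl9 and chr10:79988350-79988599 on the plus strand for Cnn2.
Acta1: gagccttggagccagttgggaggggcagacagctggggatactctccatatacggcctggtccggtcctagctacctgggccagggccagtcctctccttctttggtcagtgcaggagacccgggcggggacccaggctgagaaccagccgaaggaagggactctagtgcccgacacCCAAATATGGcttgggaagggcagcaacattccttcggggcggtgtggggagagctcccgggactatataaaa
Myl9: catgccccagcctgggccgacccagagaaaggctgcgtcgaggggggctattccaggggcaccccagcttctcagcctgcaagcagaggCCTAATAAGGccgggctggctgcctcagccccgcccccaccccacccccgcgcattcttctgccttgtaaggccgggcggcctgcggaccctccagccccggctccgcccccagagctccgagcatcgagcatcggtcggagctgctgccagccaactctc
Cnn2: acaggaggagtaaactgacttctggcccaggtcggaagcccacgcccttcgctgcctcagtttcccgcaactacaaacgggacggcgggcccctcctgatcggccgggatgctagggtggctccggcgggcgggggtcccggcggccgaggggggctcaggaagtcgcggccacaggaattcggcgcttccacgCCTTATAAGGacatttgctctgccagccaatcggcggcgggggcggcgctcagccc
The first base of the box lies 73, 161 and 56 bases before the start in Acta1, Myl9 and Cnn2. CArG boxes on either strand were present in 482 of 32851 promoter windows (1.47%) and in 6 of the 17 contractile genes that have a window (35.3%), which are Acta1, Actc1, Cnn2, Myl9, Srf and Vcl. Over the 10258 tested genes with a window the share was 1.16%, with 0.865% of genes called higher and 1.68% of those called lower. Of genes lower by at least 2-fold, 12 of 186 windows held one (6.45%). The 12 are Acta1, Rnf128, Myl9, Gm35696, Actc1, Dgkh (on chromosome 14), Myl3, Myl7, Cnn2, Dusp5, Zfp36 and Glipr2. Genes of the 3 segments were not set apart in these shares. None of 102 windows of genes higher by at least 2-fold held one, too few windows at that share to read as a contrast. None of 13 immediate early and stress genes with a window held one either. Other motifs were searched as well and are not described.

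Epithelial junction genes moved the other way. Of 26 tested, 21 were higher and 2 lower (median log2 fold change 0.80), 1 of the higher ones (Spint1) in the chromosome 2 segment. Cldn3, a tight junction claudin, was tightly grouped. Cldn3 was at 26.5, 25.99 and 25.6 FPKM in Arf-C libraries, against 2.42, 3.44 and 2.82 FPKM in Ctrlv2 libraries (log2 fold change 2.80, SE 0.096, adjusted p = 3.69e-06). Epcam, a cell adhesion molecule of epithelia and of stem cells, was higher at a high level. Epcam was at 91.4, 82.7 and 86.4 FPKM in Arf-C libraries, against 25.9, 21.9 and 21.3 FPKM in Ctrlv2 libraries (log2 fold change 1.87, SE 0.081, adjusted p = 1.16e-05). Aqp3, an aquaglyceroporin, was at 18.5, 23.04 and 29.6 FPKM in Arf-C libraries, against 2.34, 1.85 and 3.11 FPKM in Ctrlv2 libraries (log2 fold change 2.84, SE 0.19, adjusted p = 0.000162). Esrp1, a splicing regulator of epithelial cells (2.02), and Cldn7 (1.46) were higher too. Cdh1, the E-cadherin gene, had a log2 fold change of 1.06. The 2 lower members were the partner keratins Krt8 and Krt18, which form the intermediate filaments of simple epithelia. Krt8 was at 68.0, 48.9 and 42.2 FPKM in Arf-C libraries, against 149.5, 170.2 and 175 FPKM in Ctrlv2 libraries (log2 fold change -1.64, SE 0.17, adjusted p = 0.000976). Krt18 had a log2 fold change of -1.25. The summed level of the 26 genes was 973.4 to 1187 FPKM in Arf-C libraries and 877.2 to 964.6 FPKM in Ctrlv2 libraries.

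**Figure D3:**
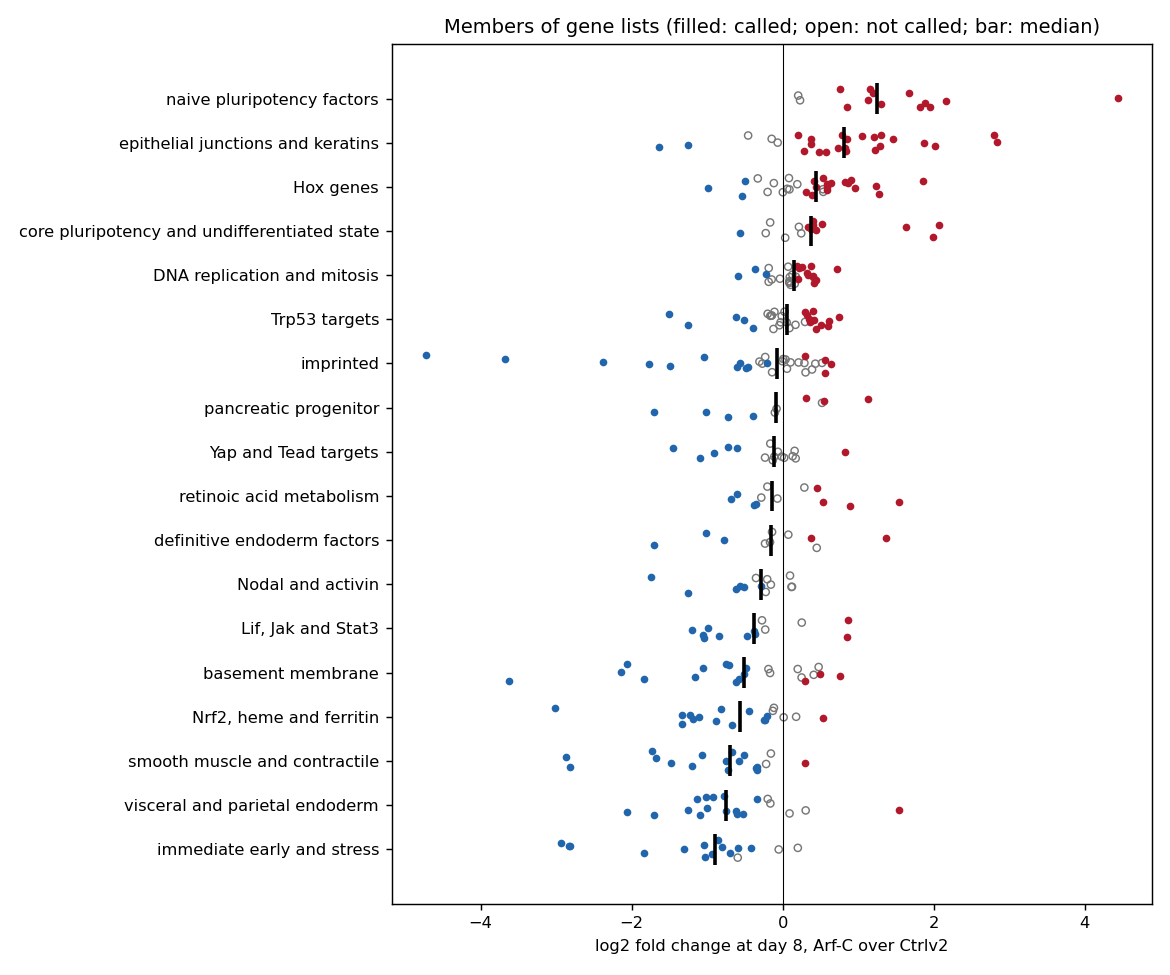
Log2 fold changes at day 8, Arf-C over Ctrlv2, of the members of 18 gene lists, ordered by their median (black bar). Filled red points were called higher, filled blue points lower, and open points were not called. Naive pluripotency genes have the highest median (1.25) and immediate early and stress genes the lowest (-0.89).

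Immediate early and stress genes were lower. Of 16 tested, 13 were lower and none higher, with a median log2 fold change of -0.89. Egr1 encodes a serum-induced transcription factor. Egr1 was at 6.45, 4.63 and 3.45 FPKM in Arf-C libraries, against 29.9, 37.5 and 53.8 FPKM in Ctrlv2 libraries (log2 fold change -2.82, SE 0.27, adjusted p = 0.00105). Fos, the AP-1 subunit, was at 2.60, 2.48 and 1.20 FPKM in Arf-C libraries and 8.27, 9.65 and 11.7 FPKM in Ctrlv2 libraries (log2 fold change -1.83, SE 0.21, adjusted p = 0.00111), and Junb had a log2 fold change of -1.04. The heat shock genes Hspa1a and Hspa1b are near-identical copies, so the split of reads between them is uncertain. Hspa1b was at 6.45, 4.77 and 4.60 FPKM in Arf-C libraries, against 25.2, 76.7 and 52.8 FPKM in Ctrlv2 libraries (log2 fold change -2.94, SE 0.41, adjusted p = 0.0045). Ctrlv2 replicate 1 was the lowest Ctrlv2 library for both copies. By voom Hspa1a missed the threshold (log2 fold change -3.12, adjusted p = 0.0524). Hspb8, a small heat shock chaperone outside that list, had a log2 fold change of -2.34.

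Targets of Nrf2, the factor that responds to oxidants, were mostly lower too. Of 18 genes of Nrf2, heme and ferritin 13 were lower and 1 higher (median log2 fold change -0.56). With a library left out 9 to 12 were lower, and with the replicate block 9. Hmox1, the heme oxygenase, was one of the lower genes. Hmox1 was at 55.1, 34.8 and 35.4 FPKM in Arf-C libraries, against 199, 519.7 and 371 FPKM in Ctrlv2 libraries (log2 fold change -3.02, SE 0.39, adjusted p = 0.00351). The Ctrlv2 libraries spread widely here, with replicate 1 lowest. Txnrd1, thioredoxin reductase, was at 56.3, 51.1 and 48.3 FPKM in Arf-C libraries and 101, 122 and 116 FPKM in Ctrlv2 libraries (log2 fold change -1.11, SE 0.087, adjusted p = 0.000145). Srxn1 (-1.34), Me1 (-1.34), Gstm1 (-1.23) and the autophagy receptor gene Sqstm1 (-1.19) were lower too. Of 19 genes of the amino acid and unfolded protein stress responses 6 were higher and 4 lower (7 lower without Ctrlv2 replicate 1). Of the 4 lower ones, Chac1 lies in the chromosome 2 segment. The synthesis enzyme genes Asns (0.61) and Phgdh (0.58) were higher, and Atf3 was at -0.80. Of 25 glycolysis and hypoxia genes 2 were higher and 6 lower, with Vegfa at -1.04, Hk2 at -0.73 and Bnip3 at -0.91. Of 19 genes of cholesterol synthesis 2 were higher and 2 lower, with the lower Fdft1 in the chromosome 14 segment.

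Genes of the signalling routes differed by route. No Nodal and activin gene was higher and 6 of 13 were lower. The lower count was 4 without Ctrlv2 replicate 3, Arf-C replicate 2 or Arf-C replicate 3, and also with libraries scaled to the same sum. Lefty2, a Nodal inhibitor and feedback target, was at 0.0463, 0.201 and 0.554 FPKM in Arf-C libraries, against 2.71, 3.35 and 3.60 FPKM in Ctrlv2 libraries (log2 fold change -1.75, SE 0.17, adjusted p = 0.000319). Fst, which binds activin, was lower (-1.25), as was the inhibitory Smad gene Smad7 (-0.51). Of 13 genes of the Lif, Jak and Stat3 route 8 were lower, among them Jak1 in the chromosome 4 segment. The 2 higher ones were Klf4 and Gbx2 (0.87). The Lif route maintains the naive state in culture. Lifr, the receptor, was at 3.43, 3.09 and 3.11 FPKM in Arf-C libraries and 10.2, 7.54 and 8.45 FPKM in Ctrlv2 libraries (log2 fold change -1.20, SE 0.11, adjusted p = 0.000233), and the feedback inhibitor gene Socs3 was lower (-0.99). Of 14 Wnt genes 4 were higher and 5 lower. The Wnt feedback genes Axin2 (1.20) and Notum (1.18) were higher, and Tcf7l1, a repressor of Wnt targets that limits pluripotency genes, was much lower. Tcf7l1 was at 4.88, 4.79 and 3.67 FPKM in Arf-C libraries, against 31.2, 30.8 and 32.4 FPKM in Ctrlv2 libraries (log2 fold change -2.58, SE 0.094, adjusted p = 5.47e-06). Of 16 Bmp and Id genes 4 were higher and 4 lower (2 higher without Ctrlv2 replicate 1, Arf-C replicate 1 or Arf-C replicate 2), with Bmp7 at 0.84, Bmp4 at 0.73, Id3 at -0.72 and Id1 at -0.49. Of 17 Fgf genes 3 were higher and 4 lower, 1 of the lower ones in a segment, with Fgf4 at 1.302 and Fgfr1 at -0.58. Of 10 Notch genes 3 were higher (1 without Arf-C replicate 2 or 3). The 1 lower Notch gene, Jag1, lies in the chromosome 2 segment.

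Imprinted genes, which are read from only 1 parental copy, held several of the largest falls. Of 30 tested, 11 were lower and 4 higher (2 higher without Arf-C replicate 1), and 6 were lower by at least 2-fold. Peg10, a paternally expressed gene derived from a retrotransposon, fell most on the log2(FPKM + 1) scale. Peg10 was at 15.7, 14.9 and 12.9 FPKM in Arf-C libraries, against 460.0, 382 and 379 FPKM in Ctrlv2 libraries (log2 fold change -4.72, SE 0.098, adjusted p = 4.03e-07). Sgce, its neighbour on chromosome 6, was at 0.103, 0.0991 and 0.154 FPKM in Arf-C libraries and 4.89, 4.73 and 4.82 FPKM in Ctrlv2 libraries (log2 fold change -2.38, SE 0.092, adjusted p = 6.55e-06). The log2 fold change of Sgce was -4.50 with a pseudocount of 0.1 and -5.35 by voom. Mest, another paternally expressed gene of chromosome 6, was lower as well. Mest was at 3.66, 2.98 and 3.24 FPKM in Arf-C libraries, against 54.9, 51.0 and 55.5 FPKM in Ctrlv2 libraries (log2 fold change -3.68, SE 0.075, adjusted p = 4.03e-07). H19 (-1.78), the amino acid transporter gene Slc38a4 (-1.49) and Phlda2 (-1.04) were also lower. The median of the list was -0.07. Of 12 genes of DNA methylation 4 were higher and 3 lower. Dnmt3l, the cofactor that sets imprints, was lower (-1.11), the methyltransferase gene Dnmt3b higher (0.52), and Zfp57, which protects imprints, higher at 0.70.

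Sex chromosome and germline genes differed as well. Rhox5 is a homeobox gene of the X chromosome. Rhox5 was at 0.802, 1.01 and 0.918 FPKM in Arf-C libraries, against 31.7, 31.6 and 26.9 FPKM in Ctrlv2 libraries (log2 fold change -4.02, SE 0.087, adjusted p = 4.03e-07). Its cluster neighbours Rhox6 (-2.15) and Rhox9 (-1.26) were lower too, and so was the X-linked Fmr1nb (-2.80). All 4 tested Y chromosome genes on the list were lower. Of all 9 tested genes of that chromosome 5 were lower and 2 higher. Ddx3y, an RNA helicase, was at 0.128, 0.337 and 0.254 FPKM in Arf-C libraries and 19.4, 21.0 and 18.9 FPKM in Ctrlv2 libraries (log2 fold change -4.07, SE 0.090, adjusted p = 4.14e-07). Uty (-2.87) and Eif2s3y (-1.13) were the others named by rule, the second of them still at 9.59, 7.75 and 7.92 FPKM in Arf-C libraries. These 3 have close copies on the X chromosome and the Rhox genes resemble each other, so the split of reads among copies is uncertain. Of 15 germline and meiosis genes 2 were higher and 5 lower, with Dmrt1, outside that list, among the higher genes (2.18). Of the largest falls, Pmel, a melanosome protein gene, was at 1.37, 1.99 and 2.17 FPKM in Arf-C libraries against 25.6, 27.9 and 26.7 FPKM in Ctrlv2 libraries (log2 fold change -3.29, SE 0.11, adjusted p = 3.54e-06), and Srgn, a proteoglycan gene of blood cells, had a log2 fold change of -3.29.

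Cell division genes were more often higher than lower. Of 28 genes of DNA replication and mitosis 12 were higher and 3 lower, 2 of the lower ones (Pcna and Bub1) in the chromosome 2 segment, with a median log2 fold change of 0.14. The mitotic kinase gene Plk1 was at 44.7, 43.1 and 40.2 FPKM in Arf-C libraries and 29.9, 24.1 and 23.1 FPKM in Ctrlv2 libraries (log2 fold change 0.72, SE 0.098, adjusted p = 0.00163). Of 23 genes of Cdk inhibitors, cyclins and Rb proteins 6 were higher and 4 lower, 1 of the lower ones (Rb1) in the chromosome 14 segment. Rbl1 (p107) was higher (0.71), and Cdk2 (-0.73) and the imprinted inhibitor gene Cdkn1c (-0.60) were lower. Of 20 apoptosis regulators 2 were higher and 6 lower, 2 of the lower ones (Bmf and Bcl2l11) in the chromosome 2 segment. Hrk, a BH3-only gene, had a log2 fold change of -1.05. Of 15 genes of MHC class I and interferon 2 were higher and 6 lower, 1 of the lower ones (B2m) in the chromosome 2 segment. Bst2, a membrane protein that tethers viruses, had a log2 fold change of -1.24.

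Markers of other cell types were at low levels or mixed in direction, with blood and endothelial genes more often lower than higher. Of 7 neural genes tested 3 were higher and 3 lower, but 1 higher without any 1 of the libraries other than Arf-C replicate 1. They had summed levels of 17.6 to 20.4 FPKM in Arf-C libraries and 23.1 to 24.4 FPKM in Ctrlv2 libraries. For 12 mesoderm and cardiac genes the sums were 29.6 to 34.4 FPKM in Arf-C libraries and 31.0 to 38.8 FPKM in Ctrlv2 libraries, with 3 higher and 4 lower. The 9 blood and endothelial genes tested summed to 15.4 to 22.03 FPKM in Arf-C libraries and 30.8 to 37.2 FPKM in Ctrlv2 libraries, with 1 higher and 5 lower. Their median log2 fold change was -0.64, against 0.003 over all genes tested. Sums for 11 trophoblast genes were 30.6 to 33.6 FPKM in Arf-C libraries and 30.4 to 30.8 FPKM in Ctrlv2 libraries, with 1 higher and none lower. Only 4 of 10 fibroblast genes were tested, with 1 higher and 1 lower. The part of any other cell type in the results above was not tested. Of 13 protein genes of the mitochondrial genome 1 was higher and 3 lower, with 0 to 2 higher and 0 to 3 lower when a library was left out (none in either direction without Arf-C replicate 1) and 3 higher and 1 lower by voom. Among the most abundant genes that were not called, Rpl4 had a log2 fold change of -0.065 and Rps6 of -0.03.

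In the chromosome 14 segment 107 of 133 genes (80.5%) were lower in Arf-C cells and 2 higher, with a median log2 fold change of -0.81. Outside the 3 segments 15.9% of genes were lower and the median was 0.01. In the chromosome 2 segment 144 of 234 genes (61.5%) were lower and 8 higher (median -0.42), and in that of chromosome 4, 12 of 20 (60%) were lower and 2 higher (median -0.73). Over the rest of chromosomes 2, 14 and 4 the medians were 0.0009, -0.005 and 0.03. The segments were chosen with earlier results of these data known, so their direction is described and not tested. When each library was left out in turn, the share of lower genes was 53% to 56.4% on chromosome 2 and 72.2% to 76.7% on chromosome 14.

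Clu, in the chromosome 14 segment, encodes a secreted chaperone. Clu was at 44.5, 41.6 and 38.1 FPKM in Arf-C libraries, against 241, 243 and 248 FPKM in Ctrlv2 libraries (log2 fold change -2.53, SE 0.065, adjusted p = 9.96e-07). Ctsb, the lysosomal protease cathepsin B, was at 68.6, 65.3 and 64.0 FPKM in Arf-C libraries and 253, 263 and 258 FPKM in Ctrlv2 libraries (log2 fold change -1.95, SE 0.052, adjusted p = 1.11e-06). Gata4, an endoderm and heart factor, lies in this segment as well. Gata4 was at 7.33, 7.26 and 6.43 FPKM in Arf-C libraries, against 25.98, 23.1 and 26.1 FPKM in Ctrlv2 libraries (log2 fold change -1.70, SE 0.075, adjusted p = 1.22e-05). The others named there were Stmn4 (-2.94), the collagen crosslinker gene Loxl2 (-1.93) and the esterase gene Esd (-1.78). The endoderm factor gene Sox7 (-1.14), Rb1, the retinoblastoma gene (-1.03), Tnfrsf10b, which encodes a death receptor (-1.26), and Fdft1, for squalene synthase (-1.15), were lower too. Tnfrsf19, a receptor gene near the start of the segment, was an exception and was higher. Tnfrsf19 was at 27.6, 27.6 and 28.6 FPKM in Arf-C libraries, against 7.60, 7.77 and 6.72 FPKM in Ctrlv2 libraries (log2 fold change 1.79, SE 0.066, adjusted p = 5.48e-06).

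On chromosome 2, B2m, the light chain of MHC class I, was lower. B2m was at 114.6, 109 and 109 FPKM in Arf-C libraries, against 404, 456 and 449 FPKM in Ctrlv2 libraries (log2 fold change -1.96, SE 0.063, adjusted p = 3.54e-06). Flrt3, a cell adhesion gene, was at 9.38, 9.53 and 8.59 FPKM in Arf-C libraries against 35.1, 30.3 and 28.2 FPKM in Ctrlv2 libraries (log2 fold change -1.66, SE 0.087, adjusted p = 2.48e-05). Patl2 (-1.61), Chac1 (-1.57), Ebf4 (-1.39) and Sord (-1.20) followed, and Pcna, the sliding clamp of DNA replication, was lower as well (-0.59). Eid1 (0.39) was among the 8 higher genes. On chromosome 4, Jak1, a kinase of cytokine receptors, was at 13.8, 15.9 and 15.3 FPKM in Arf-C libraries and 30.4, 32.4 and 34.1 FPKM in Ctrlv2 libraries (log2 fold change -1.05, SE 0.071, adjusted p = 6.91e-05). Leprot (-1.25), Mier1 (-1.004), Ak4 (-0.94), Dab1 (-0.94) and Slc35d1 (-0.85) were lower too, while Raver2 was higher (0.49).

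Over windows of 5 Mb, and counting only genes that averaged 1 FPKM or more, lower genes also lay beyond the segments as set here. On chromosome 2 the 3 windows before the segment held 17 lower genes of 26 (median log2 fold change -0.47), 7 of 18 (-0.24) and 11 of 14 (-0.51), and the window after it 1 of 12 (0.20). On chromosome 14 the 3 windows from 95 Mb on held 6 lower genes of 8, 7 of 11 and 3 of 5, with medians of -0.52 to -0.88. At day 0 the medians of the segments were -0.34 (chromosome 2), -0.76 (chromosome 14) and -0.40 (chromosome 4), with 126, 99 and 11 lower genes.

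**Figure D4:**
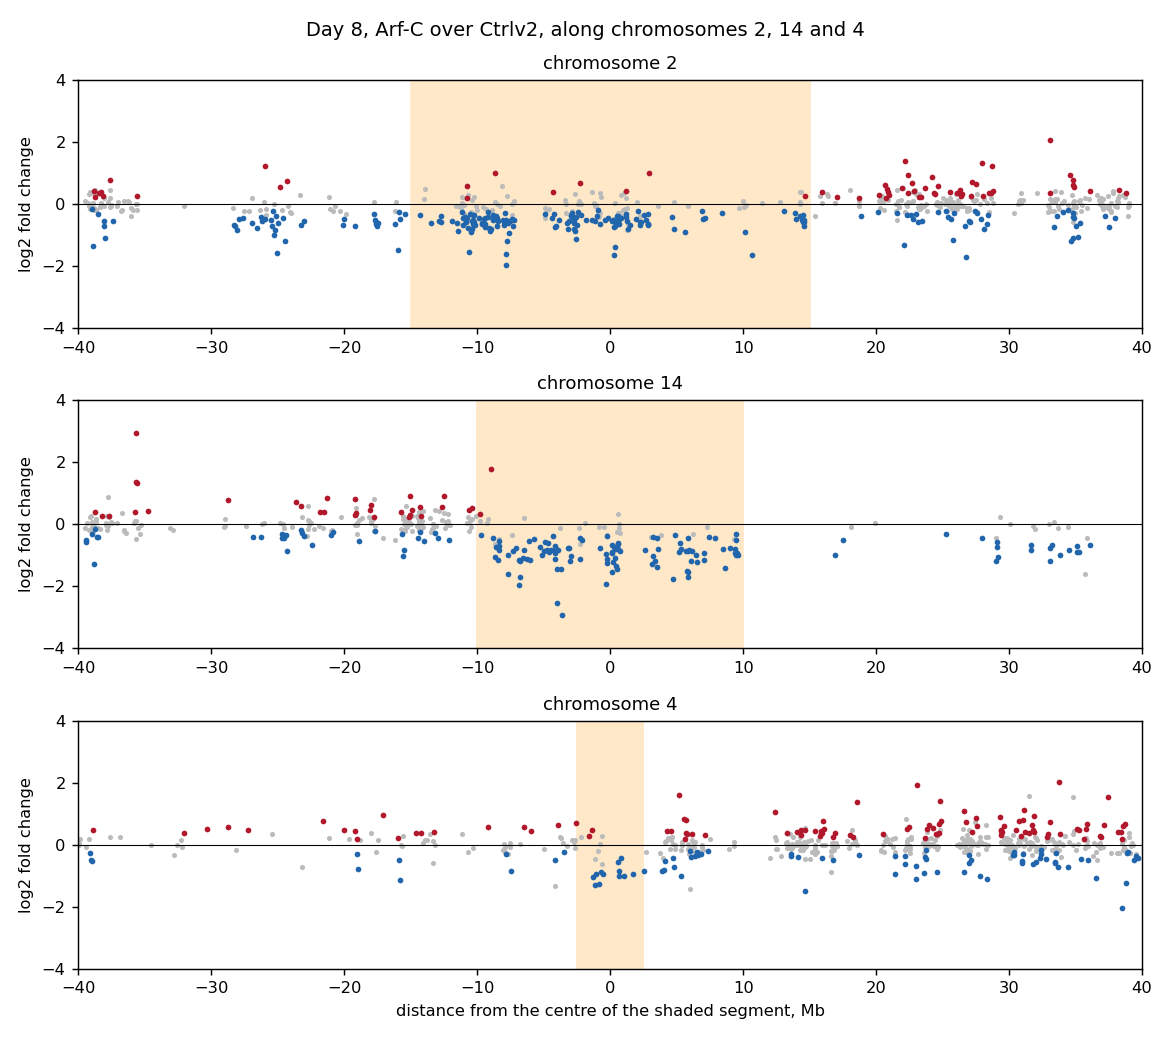
Log2 fold change at day 8, Arf-C over Ctrlv2, of genes by their distance in Mb from the centre of the shaded segments of chromosomes 2, 14 and 4. Red points were called higher, blue points lower and grey points not called. In the shaded part of chromosome 14, 107 of 133 genes are blue and the median is -0.81.

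Few genes differed between Arf-C and Arf-B cells at day 8 by the test. By the direct test 2 genes were higher and 2 lower in Arf-C cells, 0.0266% of those tested (0.0133% in each direction), with 1 higher (0.00664%) and 2 lower (0.0133%) by at least 2-fold, and 1078 had an unadjusted p below 0.05. Peg10 was at 15.7, 14.9 and 12.9 FPKM in Arf-C libraries and 4.14, 4.06 and 4.70 FPKM in Arf-B libraries (log2 fold change 1.54, adjusted p = 0.00257). Ubap2l, which encodes a ubiquitin-associated protein, was at 21.2, 22.4 and 21.5 FPKM in Arf-C libraries and 12.7, 13.2 and 13.5 FPKM in Arf-B libraries (log2 fold change 0.68, adjusted p = 0.00454). The lower genes were Ddx3y, at 0.128, 0.337 and 0.254 FPKM in Arf-C libraries and 3.75, 3.42 and 4.48 FPKM in Arf-B libraries (-1.98, adjusted p = 0.00257), and Uty, at 0.0247, 0.0239 and 0.0900 FPKM in Arf-C libraries and 2.39, 1.97 and 2.13 FPKM in Arf-B libraries (-1.59, adjusted p = 0.00257). Both lie on the Y chromosome. With all 18 libraries in the fit 5 genes were higher and 6 lower, and by voom 7 and 13.

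Values in Arf-B cells follow for some of the genes described above. Nanog was at 27.6, 30.1 and 46.0 FPKM in Arf-B libraries (Arf-C over Arf-B log2 fold change -0.11, adjusted p = 0.968), Cldn3 at 25.7, 27.1 and 22.2 FPKM (0.059, adjusted p = 0.901) and Acta1 at 1.64, 1.75 and 1.15 FPKM (-0.16, adjusted p = 0.825). Lama1 was at 3.99, 4.54 and 5.59 FPKM in Arf-B libraries (0.036, adjusted p = 0.968). These p-values miss the threshold, which does not show that the lines are equal. Against Ctrlv2, 2366 genes were higher (15.7%) and 2739 lower (18.2%) in Arf-B cells at day 8 (33.9% called), by at least 2-fold 1.22% and 1.79%, a comparison that uses the same 3 Ctrlv2 libraries as that of Arf-C. In the segments the Arf-C over Arf-B medians were 0.01 (chromosome 2), -0.0003 (chromosome 14) and -0.02 (chromosome 4), while on chromosome 15 the median was -0.07, the lowest of the autosomes.

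The difference between Arf-C and Ctrlv2 cells was not the same at day 8 as at day 0. At day 0, 2791 of these genes were higher (18.5%) and 3028 lower (20.1%), 38.7% in all, and by at least 2-fold 1.32% and 2.77%. The test of the change in difference, day 8 minus day 0, called 2755 genes higher (18.3%) and 2784 lower (18.5%), 36.8% in all, and by at least 2-fold 3.51% and 3.08%. Of the 2229 genes higher at day 8, 1227 had a positive change in difference by this test, 57 a negative one, and 945 were not called. Of the 2591 lower genes, 1388 had a negative change in difference, 185 a positive one, and 1018 were not called. The day 8 libraries that chose these genes also enter the change in difference, so the shared sign is partly built in and nothing is read from it.

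For Nanog the difference between the lines changed between the days. At day 0 it was at 332, 301 and 335 FPKM in Arf-C libraries and 271, 248 and 267 FPKM in Ctrlv2 libraries, and the difference between the days was 4.14 on the log2 scale (SE 0.41, adjusted p = 5.3e-05). Acta1 was near 0 in both groups at day 0, at 0, 0.246 and 0.0775 FPKM in Arf-C libraries and 0.0446, 0 and 0.121 FPKM in Ctrlv2 libraries (difference -2.94, adjusted p = 4.25e-07). For Hmox1 the day 0 levels were 46.3, 48.1 and 44.8 FPKM in Arf-C libraries and 39.4, 33.4 and 34.3 FPKM in Ctrlv2 libraries (difference -3.39, adjusted p = 0.000201). Pmel, at 32.2, 34.3 and 33.1 FPKM in Arf-C libraries and 20.8, 15.4 and 16.9 FPKM in Ctrlv2 libraries at day 0, had a log2 fold change of 0.88 then and of -3.29 at day 8 (difference -4.18, adjusted p = 7.37e-08). The order of the lines was thus opposite at the 2 days.

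Other genes were called at day 0 and, in the fit used here, not at day 8. At day 8 they stood near the threshold, since Stra8 was called with all 9 day 8 libraries in the fit (adjusted p = 0.0223), by voom (0.00913) and without Ctrlv2 replicate 2 (0.049), S100a6 under 3 of the alternatives (0.0337 to 0.0436) and Setbp1 under 4 (0.02 to 0.0491). Stra8 was at 2.47, 2.61 and 1.94 FPKM in Arf-C libraries and 41.9, 35.5 and 48.4 FPKM in Ctrlv2 libraries at day 0 (log2 fold change -3.68), against -0.19 and no call at day 8 (difference 3.49, adjusted p = 1.41e-07). S100a6, a calcium binding protein gene, had 0.0904, 0.502 and 0.232 FPKM in Arf-C libraries and 27.5, 31.1 and 28.7 FPKM in Ctrlv2 libraries at day 0, and 1.37, 1.32 and 1.20 FPKM in Arf-C libraries and 2.18, 1.79 and 1.62 FPKM in Ctrlv2 libraries at day 8 (difference 4.26). Setbp1, whose product binds the protein SET, stood higher in Arf-C cells at day 0 (3.47) and at 0.24 with no call at day 8. Peg10 and Rhox5 were lower at both days, with log2 fold changes of -4.09 and -6.03 at day 0. In Krt8 the difference between the days was -0.45 and not called (adjusted p = 0.136), with a log2 fold change of -1.20 at day 0.

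**Figure D5:**
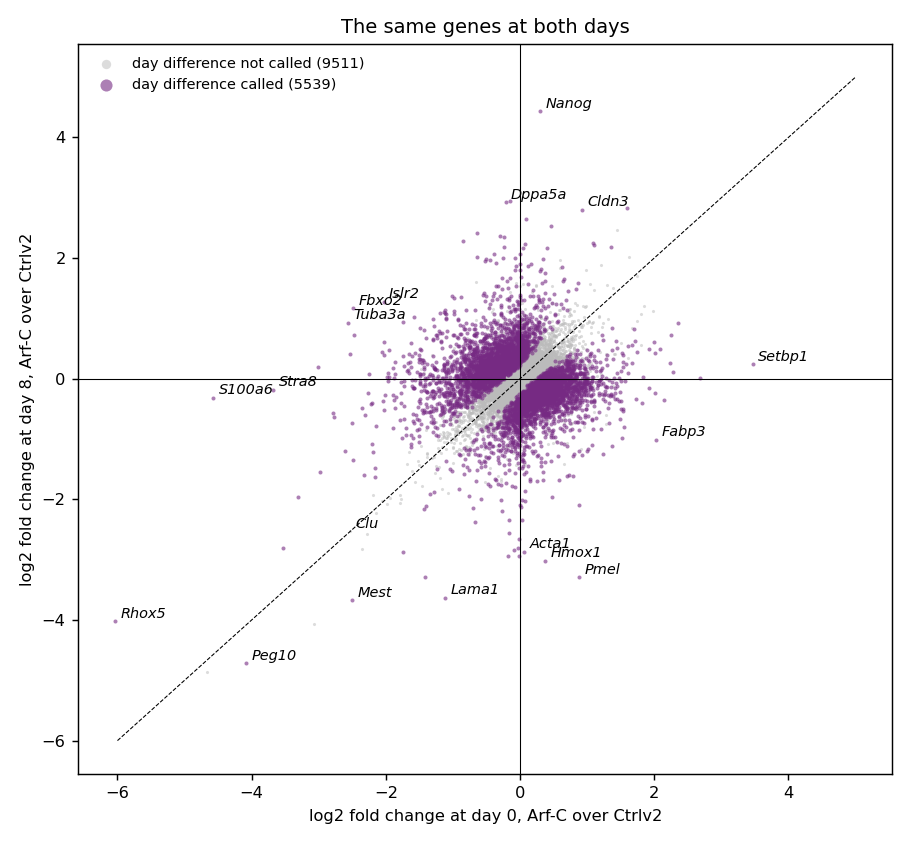
Log2 fold change of Arf-C over Ctrlv2 at day 0 (x axis) and at day 8 (y axis) for 15050 genes. The dashed line marks equal differences, and purple points are the 5539 genes whose difference changed between the days by the test. Nanog lies at 0.30 on day 0 and 4.44 on day 8, Stra8 at -3.68 and -0.19.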

How the data were processed

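Polyadenylated RNA of 18 libraries was sequenced, and 6 of them (Arf-C and Ctrlv2 at day 8, 3 each) enter the comparison described here. The authors deposited FPKM values per gene. The submitters' processing notes name HISAT2, featureCounts, DESeq2 and mm10, with no roles, versions or strand setting. All 413772 values above 0 came out as whole reads within 0.001 when multiplied back, so a count-weighted fit (limma's voom on those reads) was run as an alternative. It called 2651 genes higher and 2939 lower.

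Genes were kept where 3 or more of the 6 libraries reached 0.5 FPKM. log2(FPKM + 1) was tested with limma 3.58.1 in R 4.3.3 (moderated test with trend and robust settings), on the libraries of each comparison, with Benjamini-Hochberg adjustment over all 15050 genes and a threshold of 0.05. The script was tested on simulated data. Genes named by rule were the called genes with the largest changes (20 per direction outside the segments, up to 6 per list and 6 per direction per segment and further comparison), the 6 most abundant uncalled ones with small differences, and 7 set genes such as Cdkn2a. Crabp2, Hoxb4, Hoxc5, Cdh1, Krt18, Ubtf, Fgf4, the octamer and CArG genes and those under the level minimum were named after their values were seen. The members, segments and gene lists were chosen with earlier results of these data known. Alternatives changed the pseudocount, the level minimum, the scaling, the libraries in the fit, the variance model, the depth (thinned), the replicate block and each library in turn. Promoter sequences came from RefSeq (GRCm38.p6), and 96.11% of the genes had the same position in GENCODE vM21.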

Additional observations from a re-analysis of the deposited data

Results flagged for a closer look

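The difference between Arf-C and Ctrlv2 cells changed between the days in many genes, by a test of the change itself (day 8 minus day 0). It was positive in 2755 genes and negative in 2784. Among the genes named, the change was 4.14 on the log2 scale for Nanog, 4.26 for S100a6, 3.66 for Fbxo2, 3.49 for Stra8, 3.49 for Tuba3a and 3.31 for Islr2. It was -4.18 for Pmel, -3.39 for Hmox1, -3.23 for Setbp1, -3.04 for Fabp3, -2.94 for Acta1 and -2.93 for Stmn4.

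Arf-C and Arf-B cells differed at day 8 by the direct test in 2 genes that were higher and 2 that were lower in Arf-C cells. The log2 fold change was 1.54 for Peg10, 0.68 for Ubap2l, -1.59 for Uty and -1.98 for Ddx3y.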

How the results depend on the processing

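The 137 summary values recomputed under an alternative were counts and shares of called genes, which have no sign to change. Of these, 131 kept their size class and 6 moved. For single named genes, over all alternatives and the 3 comparisons, a call was lost 148 times and gained 16 times. Without Arf-C replicate 2, 1395 genes were called higher at day 8, and over all libraries left out in turn the counts were 1395 to 1941 higher and 1804 to 2343 lower. The direct comparison of Arf-C and Arf-B cells gave 5 higher and 6 lower genes with all 18 libraries, 7 and 13 by voom, and 1 to 3 higher and 2 to 3 lower with a library left out (1 higher without Arf-B replicate 2). The cause was not tested. Same-numbered libraries of Arf-C and Ctrlv2 did not deviate together across genes (correlations of -0.010, -0.031 and -0.017). That cannot settle whether they were prepared together, which the labels do not state. With the replicate block 1841 genes were higher and 2219 lower. Without the level minimum 28583 genes were tested, with 1674 higher and 2002 lower. Depth limits genes near 1 FPKM, where 3 reads matter. Gene lists with only 1 or 2 called members in a direction gained or lost such a member in many of the fits with a library left out.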
